A study of Mus musculus with 10 samples.

Results

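Complex I of the respiratory chain was followed through the mouse genes for its subunits, taken as every gene whose symbol starts with Ndufa, Ndufb, Ndufc, Ndufs, Ndufv or Ndufab and leaving out the assembly factors (Ndufaf). Each gene was read from 1 probe set, the one with the highest mean over the 10 arrays among those annotated to that symbol alone, and was kept if the mean of at least 1 group reached 4 on the log2 scale. This left 34 genes of 36 so named, out of 10623 genes kept in the same way. The samples were fibroblasts cultured from mouse embryos, in 5 groups of 2 arrays. A line with a conditional knockout allele of Dicer (CDKO) was untreated or was kept for 4 days with 4-hydroxytamoxifen (OHT) at 1 µM or 5 µM, and wild-type (WT) cells were kept with 5 µM for as long or were untreated. Dicer is the enzyme that cuts microRNA precursors, and OHT is an estrogen receptor ligand with which inducible Cre recombinases are activated. The labels give neither the recombinase nor its promoter, neither strain nor age of the embryos, and neither the number of clones nor whether replicate arrays stand for separate cultures. The p-values may therefore measure technical spread, and the untreated CDKO cells carried the conditional allele too. In these bulk samples, fewer cells of a type and less RNA per cell cannot be told apart.

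Complex I is the entry point of electrons from NADH into the respiratory chain of the inner mitochondrial membrane. Its NADH-oxidising arm takes the electrons up on a flavin. A chain of iron-sulfur clusters in this arm and in the quinone-reducing arm hands them to ubiquinone, and the membrane arm pumps protons. The core subunits carry out these steps, some of them encoded in the mitochondrial genome and not analysed here, and the accessory subunits stabilise the complex. In fibroblasts as in other cells, nuclear genes of oxidative phosphorylation are known to carry promoter sites of the factors NRF1, GABP and YY1.

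The promoter windows below show where the short motifs of these factors lie in some of the complex I genes. Promoters of 31 of the 34 genes were matched by symbol in RefSeq (GRCm38.p6), as windows of 250 bases before and 50 bases after the start site, 2 of the genes having 2 start sites; Ndufa2, Ndufb9 and Ndufs1 were not matched. Both strands were searched, the last 3 letters of CCGGAAG can overlap with the first 3 of AAGATGG, and the capitals mark the motif or its reverse complement. The NRF1 motif GCGCATGC was in 2 of 31 genes (6.45%, against 3.05% of all 27025 genes with a window), here Ndufa6 at chr15:82354356-82354385 and Ndufa8 at chr2:36049328-36049357, both on the minus strand.
Ndufa6: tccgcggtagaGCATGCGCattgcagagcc
Ndufa8: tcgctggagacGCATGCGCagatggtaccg
The GABP motif CCGGAAG was in 4 genes (12.9%, against 9.93%), namely Ndufb6, Ndufb7, Ndufs3 and Ndufs8. The window of Ndufs8 (chr19:3912742-3912770, minus strand) and the first of 2 in Ndufs3 (chr2:90904731-90904759, minus strand) are shown.
Ndufs8: ttaggctccgcCTTCCGGttgaaccgcat
Ndufs3: cccgcgtccgcCCGGAAGaagagtcactg
The YY1 motif AAGATGG was in 6 genes (19.4%, against 7.28%), namely Ndufa3, Ndufa9, Ndufb8, Ndufc1, Ndufs4 and Ndufs7. It lay 22 to 38 bases after the start site in all 6. The windows of Ndufa3 (chr7:3617384-3617412, plus strand), Ndufb8 (chr19:44555393-44555415, minus strand), Ndufc1 (chr3:51408916-51408944, minus strand) and Ndufs4 (chr13:114388045-114388070, minus strand) are shown. A match says only that these letters are in the window.
Ndufa3: ccgccaagaacAAGATGGccgggagtaag
Ndufb8: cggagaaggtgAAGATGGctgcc
Ndufc1: gcctgcggaacAAGATGGcgccgtccgta
Ndufs4: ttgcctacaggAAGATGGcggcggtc

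Several facts of the arrays touch the values below. Dicer1 itself had 2 probe sets, and the sources used here do not place them relative to the deleted part. They averaged 6.54 and 6.13 in untreated CDKO cells, 6.85 and 6.33 at 1 µM and 5.81 and 5.69 at 5 µM, against 7.42 and 5.92 in WT cells at 5 µM and 9.03 and 7.24 in untreated WT cells. The first probe set had 5.40 and 8.30 in the 2 arrays at 1 µM. Neither passed when treated CDKO cells were set against the controls (limma adjusted p of 0.235 and 0.227). The second passed in WT cells at 5 µM against untreated (-1.32, adjusted p = 0.0266) and in CDKO against WT cells without OHT (-1.11, adjusted p = 0.0481). Between 41.8% and 43.2% of the probe sets of an array reached 4. All 8 fibroblast markers reached 4 in every group, and so did 11 or 12 of 12 macrophage and leukocyte markers, whose mean level was 6.38 to 8.71 in the CDKO arrays and 9.01 to 9.11 in the WT arrays. Of 11 skeletal muscle markers 8 reached 4 in untreated WT cells, against 3 in every other group. There the array means were 5.93 and 6.08, against 4.19 to 4.53 in the other 8 arrays, and the defining markers Myog, Myod1 and Ckm were below 4 in all groups. Of 5 epithelial markers 4 reached 4 in untreated WT cells and 2 elsewhere, and of 4 adipocyte markers 4 did there and 3 elsewhere. In WT cells at 5 µM against untreated, 1 of 8 fibroblast markers was lower, 0 of 12 macrophage and leukocyte markers passed (2 at an unadjusted p under 0.05), and 2 of 4 epithelial and 1 of 4 adipocyte markers tested were lower. The level of the bacterial spike-in controls was 9.65 to 10.2 in 4 CDKO arrays (untreated replicate 2, both at 1 µM and replicate 2 at 5 µM), against 10.975 to 11.7 in the other 6 arrays. The part of these measures in the results was not tested.

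Complex I mRNAs were bright on the arrays in every group. Among the 34 probe sets, 33 had a mean over the arrays of 10 or above on the log2 scale, and Ndufb1, an accessory subunit of the membrane arm, was the dimmest at 7.18. Ndufb1 also marked the edge of the rule with a highest group mean of 7.59. On the other side of it were Ndufa4l2 at 2.37 and the single-symbol probe set of Ndufb4 at 2.08, both near background. Ndufa4l2, a hypoxia-induced relative of Ndufa4, had 2.26 and 2.48 in WT cells at 5 µM, against 2.02 to 2.04 in the other 8 arrays. Bright probe sets of Ndufa11, Ndufb4 and Ndufs6 are annotated to further symbols as well and were not used. Ndufa4 kept its name although later work placed its protein in complex IV. The genes lie on 15 chromosomes, 2 of them on X.

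The range over the 5 group means had a median of 0.50 for the 34 genes, against 0.84 for all genes and 0.66 for the 2750 genes with a mean of at least 10. The widest ranges were those of Ndufa5 (1.01), an accessory subunit of the quinone-reducing arm, of Ndufb1 (0.99) and of Ndufa7 (0.90), an accessory subunit of the NADH-oxidising arm. The narrowest were those of Ndufa2 (0.20), Ndufb9 (0.22) and Ndufa10 (0.23). Ndufa2 has a thioredoxin-like fold, Ndufb9 belongs to the LYR-motif proteins and Ndufa10 is a membrane arm subunit related to nucleoside kinases. Untreated WT cells had the highest mean of the 5 groups for 13 genes and the lowest for 13 others, and CDKO cells at 5 µM had the highest for 5 and the lowest for 16. Over all genes these shares were 32.1% and 26.2% in untreated WT cells and 20.9% and 20.9% in CDKO cells at 5 µM.

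**Figure D1:**
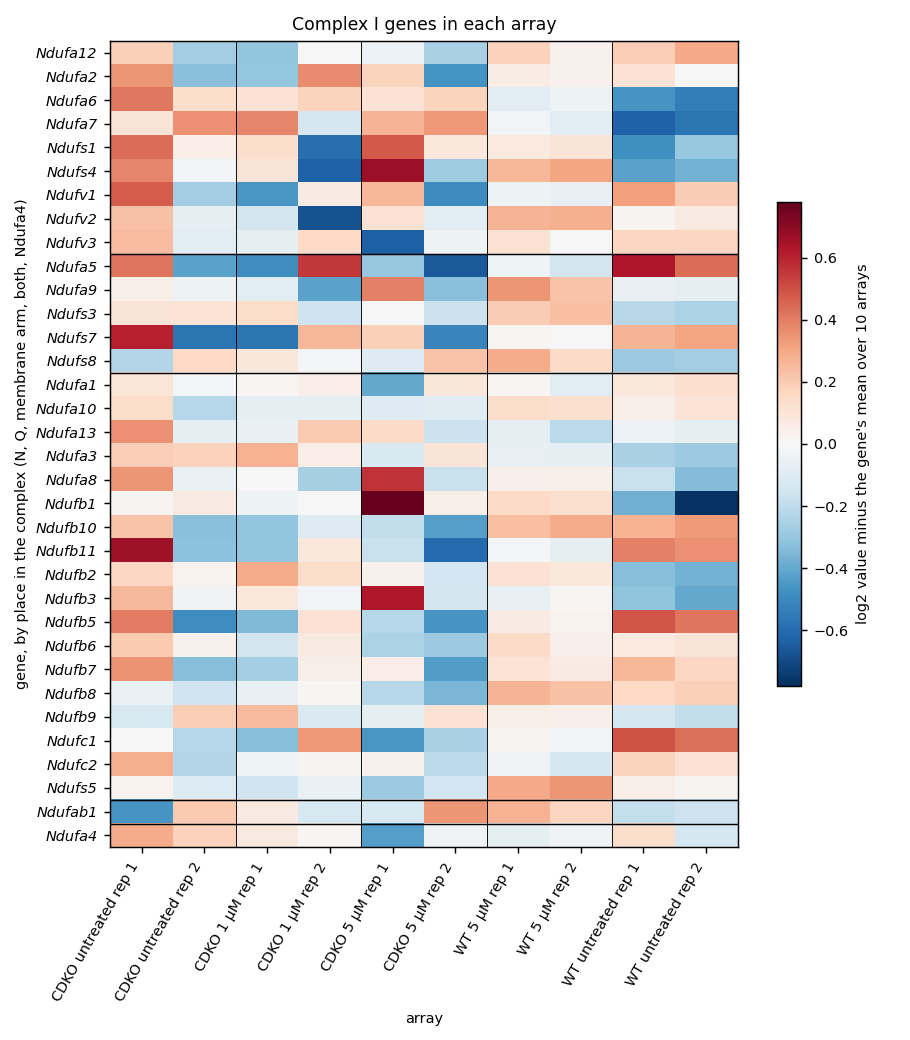
Log2 value of each complex I gene (one line each, ordered by its place in the complex) minus its mean over the 10 arrays, in each array, with red above and blue below the mean. Ndufa7, Ndufa6 and Ndufb1 are low in both untreated WT arrays and Ndufa5 and Ndufc1 are high there, and the paired arrays of a CDKO group often have opposite colours.

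Replicates lay close together in WT cells only. The median SD between the 2 arrays over the 34 genes was 0.24 in untreated CDKO cells, 0.19 at 1 µM and 0.23 at 5 µM. It was 0.033 in WT cells at 5 µM and 0.041 in untreated WT cells. In the same order it was 0.30, 0.32, 0.28, 0.065 and 0.085 over all genes. Over the 2750 bright genes it was 0.23, 0.24, 0.24, 0.038 and 0.056, so this was not particular to complex I. Ndufs7, a core subunit that holds the last iron-sulfur cluster before ubiquinone, had 12.67 and 11.50 in untreated CDKO cells, 11.51 and 12.33 at 1 µM, and 12.26 and 11.56 at 5 µM, against 12.08 and 12.07 in WT cells at 5 µM and 12.34 and 12.38 in untreated WT cells. The CDKO arrays thus spanned a wider range within each group than the WT arrays did between doses. The model used for all comparisons, limma on 5 group means, pools this spread, so that its errors are too small among CDKO groups and too large among WT groups.

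The design text sets treated CDKO cells against the other groups, and in that comparison no complex I gene passed. The count was 0 of 34 (limma, adjusted p under 0.05, against a background of 2.43% of all genes), and 2 of 34 had an unadjusted p under 0.05 (background 15.6%). One was Ndufa7, higher by 0.36 ± 0.15 (SE, 4 treated CDKO arrays against 6 control arrays, adjusted p = 0.246), and the other was Ndufb10, a membrane arm subunit, at -0.43 ± 0.15 (adjusted p = 0.186), the highest and the lowest change of the 34. Ndufb10 had 11.94 and 12.15 in CDKO cells at 1 µM and 12.06 and 11.82 at 5 µM, against 12.47 and 11.92 in untreated CDKO cells, 12.49 and 12.54 in WT cells at 5 µM, and 12.52 and 12.58 in untreated WT cells. The treated CDKO arrays lay below all 4 WT arrays and overlapped with the untreated CDKO arrays. In all, 12 genes had a positive change and 22 a negative one, with a median of -0.12, against 0.02 for all genes and 0.03 for the 2750 genes with a mean of at least 10. With a block for the spike-in level the median of the members was -0.014. All 34 of the 95% intervals lay within 1 log2 unit of 0, that is within a 2-fold change. Of the intervals of all genes 73.9% did, and of those of the bright genes just named 88.1%. The lowest bound was -0.97, for Ndufa5. Because the pooled errors are too small among CDKO groups, these intervals and those within the CDKO line below may be too narrow.

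**Figure D2:**
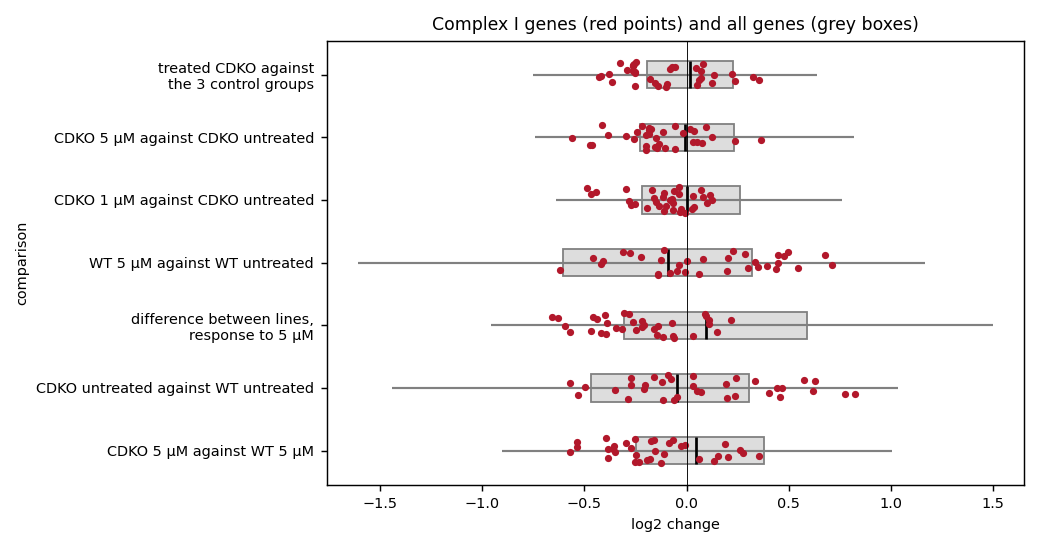
Log2 change of each of the 34 complex I genes (red points) in the 7 comparisons, over the distribution of all 10623 genes (box from the lower to the upper quartile, bar at the median, line from the 5th to the 95th percentile). The red points stay between -0.66 and 0.82 throughout, and in the difference between lines they lie mostly left of the median of all genes.

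Within the CDKO line, OHT at 5 µM left every complex I gene short of the threshold. The count was 0 of 34 at an adjusted p under 0.05 (background 0.141%) and 0 of 34 at an unadjusted p under 0.05 (background 7.4%). Changes ran between -0.56 for Ndufb11 and 0.37 for Ndufb1, both membrane arm subunits, with a median of -0.15 (all genes -0.01, bright genes -0.0087), and 27 of 34 intervals lay within 1 log2 unit of 0 (all genes 48.3%, bright genes 67.3%). Ndufb11 had 12.17 and 11.74 in CDKO cells at 5 µM, against 13.01 and 12.02 in untreated CDKO cells. The untreated replicate 1 stood alone on the high side and replicate 2 lay between the treated arrays. Ndufa4 had the smallest adjusted p, 0.611, with a change of -0.46 ± 0.21; it had 12.09 and 12.49 at 5 µM, against 12.81 and 12.70 in untreated CDKO cells. The groups did not overlap in that gene, in 7 of the 34 and in 27.6% of all genes. Without replicate 1 of the untreated CDKO cells the median of the 34 genes became 0.01.

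At 1 µM the changes in CDKO cells were smaller in their median, and the doses were not tested against each other. The median absolute change of the 34 genes was 0.11, against 0.18 at 5 µM (all genes 0.24 and 0.23). Both values lay below the median SD between replicates in each CDKO group (0.19 to 0.24). None of the 34 genes passed (0% of all genes did), and 0 had an unadjusted p under 0.05 (background 2.3%). The lowest change was -0.49 ± 0.24 for Ndufv2, a core subunit with an iron-sulfur cluster beside the flavin (adjusted p = 0.887), and the highest was 0.12 ± 0.18 for Ndufb2. Ndufv2 had 12.45 and 11.91 at 1 µM, against 12.82 and 12.52 in untreated CDKO cells. Both arrays at 1 µM lay below both untreated arrays, the groups being apart in 4 of the 34 genes and in 22.4% of all genes, and the 12.72 and 12.51 at 5 µM overlapped with the untreated values. The median over the genes was -0.08 (all genes 0.00, bright genes -0.0067), with 8 positive and 26 negative changes and 28 of 34 intervals within 1 log2 unit of 0 (all genes 48.9%, bright genes 69.2%). This median also turned, to 0.05, without the untreated CDKO replicate 1, and both doses share the untreated CDKO arrays.

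In WT cells at 5 µM against untreated WT cells, no complex I gene passed in the model of all 5 groups. The count was 0 of 34 (background 8.18%), and 4 genes had an unadjusted p under 0.05 (background 28.3%), all of them higher at 5 µM. Ndufb1 had 7.33 and 7.30 in WT cells at 5 µM, against 6.80 and 6.41 in untreated WT cells (0.71 ± 0.28, SE, n = 2 arrays each, adjusted p = 0.132). Ndufa7 had 12.83 and 12.76 at 5 µM, against 12.22 and 12.28 untreated (0.54 ± 0.23, adjusted p = 0.157). The other two were Ndufb2 (0.45) and Ndufa6 (0.44), a LYR-motif subunit that binds the acyl carrier protein Ndufab1. In each of these 4 genes both treated arrays lay above both untreated ones; the groups were apart, in either direction, in 29 of the 34 genes and in 83.5% of all genes. The lowest change was that of Ndufa5, which had 11.94 and 11.83 at 5 µM, against 12.60 and 12.41 untreated (-0.62 ± 0.40, adjusted p = 0.334). Over the 34 genes 19 changes were positive and 15 negative, with a median of 0.07 (all genes -0.09, bright genes 0.04), and 22 of 34 intervals lay within 1 log2 unit of 0 (all genes 33.1%, bright genes 48.1%).

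The WT result rests on which arrays set the spread. A fit on the 4 WT arrays alone, with 2 residual degrees of freedom, called 18 of 34 genes (52.9%, limma adjusted p under 0.05), against a background of 54.9% of all genes, so that the share of complex I genes was near that of the genome. In that fit 12 genes were higher at 5 µM, among them Ndufb1 (0.71), Ndufs4 (0.68), Ndufa7 (0.54) and the core subunits Ndufs8 (0.50), Ndufs1 (0.48) and Ndufs3 (0.45). Ndufs4 is an accessory subunit of the NADH-oxidising arm whose loss causes a Leigh-like disease in mice. The 6 genes that were lower were Ndufa5 (-0.62), Ndufc1 (-0.46), Ndufb11 (-0.42), Ndufb5 (-0.41), Ndufv1 (-0.31), the core subunit that binds NADH and the flavin, and Ndufs7 (-0.28). Of all genes 22% were called higher and 32.9% lower in the same fit.

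**Figure D3:**
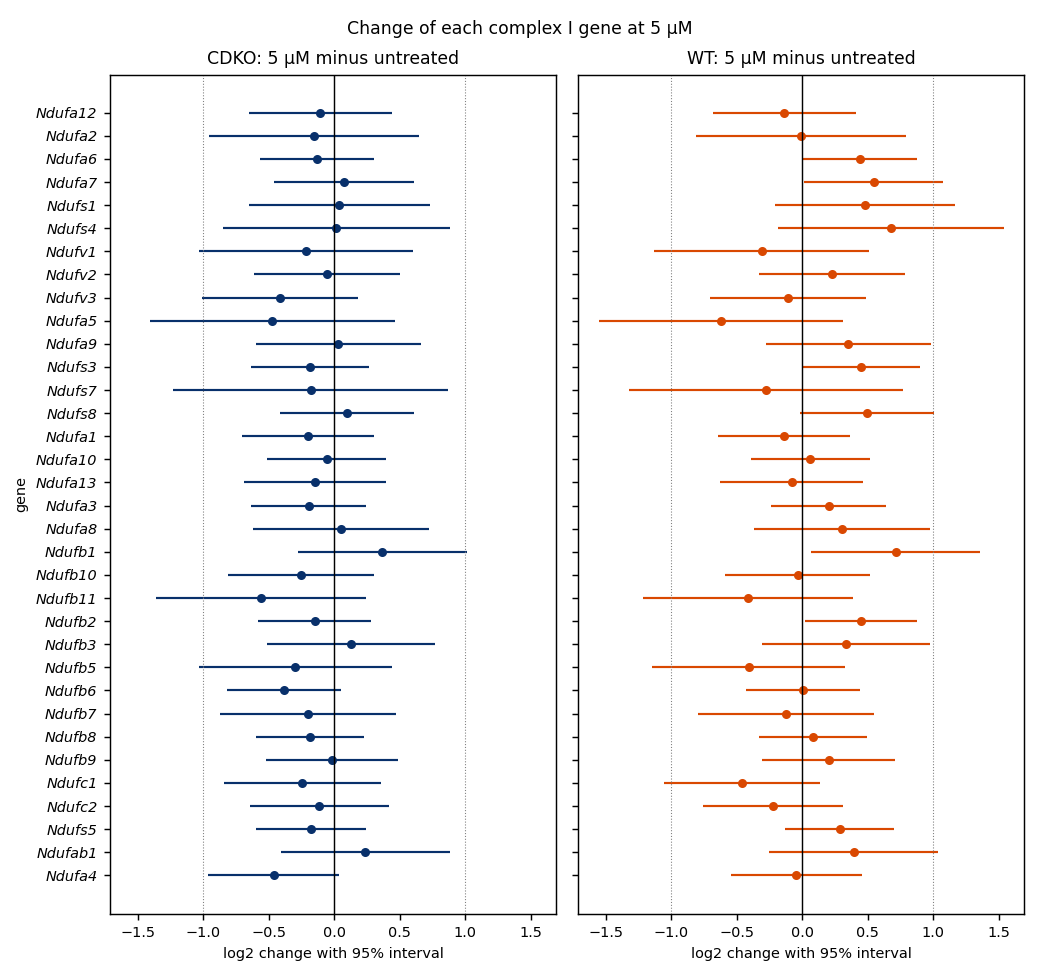
Log2 change of each complex I gene at 5 µM minus untreated, with its 95% interval from limma on all 10 arrays (2 arrays in each group), in CDKO cells (left) and WT cells (right), with genes ordered by their place in the complex. All intervals in CDKO cells and all but 4 in WT cells cross 0, and the points scatter more widely in WT cells, between -0.62 and 0.71, than in CDKO cells, between -0.56 and 0.37.

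The response to 5 µM was also compared between the lines. No complex I gene differed in it (0 of 34, background 0.301%), and 0 had an unadjusted p under 0.05 (background 11.8%). The differences, CDKO response minus WT response, were negative for 27 of 34 genes with a median of -0.23, against 0.09 for all genes and -0.061 for the bright ones. This median was -0.38 without replicate 2 of the untreated CDKO cells and -0.14 without replicate 1. They ran between -0.66 ± 0.52 for Ndufs4 and 0.22 ± 0.36 for Ndufc1. Ndufs3, a core subunit of the quinone-reducing arm, had the smallest adjusted p, 0.402, at -0.63 ± 0.27. It had 11.72 and 11.55 in CDKO cells at 5 µM, against 11.82 and 11.82 in untreated CDKO cells, and 11.92 and 11.95 in WT cells at 5 µM, against 11.50 and 11.47 in untreated WT cells. Its treated arrays lay below the untreated ones in CDKO cells and above them in WT cells, where 83.5% of all genes did not overlap between the groups. These intervals were wide, and only 7 of 34 lay within 1 log2 unit of 0 (all genes 15.6%, bright genes 27.7%).

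Between the untreated lines the largest changes of complex I genes were those of Ndufa7 and Ndufa6 in the NADH-oxidising arm, and neither passed. The count was 0 of 34 (background 4.54%), and 4 genes had an unadjusted p under 0.05 (background 21.2%), all higher in CDKO cells. Ndufa6 had 11.29 and 11.01 in untreated CDKO cells, against 10.42 and 10.34 in untreated WT cells (0.77 ± 0.19, adjusted p = 0.0542). Ndufa7 had 12.95 and 13.21 in untreated CDKO cells, against 12.22 and 12.28 in untreated WT cells (0.82 ± 0.23, adjusted p = 0.0798). Neither gene overlapped between the groups, which were apart in 20 of the 34 genes and in 59.3% of all genes. The treated CDKO arrays, with 10.99 to 11.05 for Ndufa6 and 12.72 to 13.24 for Ndufa7, also stayed above the untreated WT cells. Ndufa3 (0.46) and Ndufb2 (0.44) were the other two. Ndufc1, a small membrane arm subunit, had the lowest change, -0.57 ± 0.26, with 12.68 and 12.46 in untreated CDKO cells, against 13.18 and 13.11 in untreated WT cells. Over the 34 genes 18 changes were positive and 16 negative, and the median was 0.03 (all genes -0.05, bright genes 0.05), which became -0.09 without replicate 1 of the untreated CDKO cells. Ndufa6 passed without a filter on low values, for which the share of all genes is not given. With either 1 µM array left out the changes of Ndufa6 and Ndufa7 stayed at 0.77 and 0.82. Those arrays enter this comparison only through the pooled error of every gene. Ndufa6 and Ndufa7 also passed with array weights, where 5.88% of members and 6.92% of all genes did.

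At the same dose of 5 µM, the 3 lowest changes of the CDKO line against the WT line were those of membrane arm genes. The arm as a whole was not the lowest. The median was -0.19 over its 18 genes, -0.25 over the 5 of the quinone-reducing arm and -0.09 over the 9 of the NADH-oxidising arm. None of the 34 genes passed (background 1.45%), and 3 had an unadjusted p under 0.05 (background 15.1%), all with negative changes. Ndufb8 had 11.59 and 11.45 in CDKO cells, against 12.07 and 12.04 in WT cells (-0.54 ± 0.18, adjusted p = 0.2). Ndufs5, which faces the intermembrane space, had 11.98 and 12.12 in CDKO cells, against 12.56 and 12.61 in WT cells (-0.53 ± 0.18, adjusted p = 0.209). Ndufb10 had 12.06 and 11.82 in CDKO cells, against 12.49 and 12.54 in WT cells (-0.57 ± 0.24, adjusted p = 0.306). No CDKO array at 5 µM reached the WT arrays in these 3 genes, and the groups were apart in 17 of the 34 genes and in 54.8% of all genes. In total 8 changes were positive and 26 negative, with a median of -0.18 (all genes 0.04, bright genes 0.01), which was -0.31 with centred arrays, and 29 of 34 intervals lay within 1 log2 unit of 0 (all genes 40.3%, bright genes 60.3%).

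The arms of the complex were described without a test of one against another. In the model of all 5 groups no member of any arm passed. At 5 µM against untreated, the 9 genes of the NADH-oxidising arm had a median change of -0.11 in CDKO cells and 0.23 in WT cells, the 5 genes of the quinone-reducing arm -0.18 and 0.35, and the 18 genes of the membrane arm -0.18 and 0.03. The acyl carrier protein Ndufab1, which sits in both arms, was at 0.24 in CDKO cells and 0.39 in WT cells. The 6 core subunits read here had a median of -0.12 in CDKO cells and 0.34 in WT cells. In this model 0 of 6 passed and 0 of 6 had an unadjusted p under 0.05 in both. Of all genes 0.141% and 7.4% did in CDKO cells, and 8.18% and 28.3% in WT cells. The core subunits called in the fit on WT arrays alone are given above.

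The changes of members differed with the kind of probe set. On this array a plain _at suffix marks probes unique to a target, _a_at marks probes shared by transcripts of one gene, _s_at probes shared by several transcripts that may be of different genes, and _x_at probe sets with some probes that may cross-hybridise. In the fit on WT arrays alone all 6 lower genes were read from an _a_at or _x_at probe set, and of the 12 higher ones 7 were read from a plain one, 4 from an _a_at or _x_at and 1 from an _s_at. Of the 34 genes 13 were read from a plain probe set, 15 from an _a_at, 2 from an _x_at and 4 from an _s_at. For 12 of the 34 genes both an _a_at or _x_at and a plain probe set had a mean of at least 8. In WT cells at 5 µM against untreated, the change was lower in the _a_at or _x_at probe set in 12 of 12 genes, against 70.6% of 746 genes with both kinds. The medians were -0.29 and 0.20 (all such genes -0.13 and 0.17), and the sign differed in 6 of 12 genes (all such genes 35.1%).

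Ndufs7 showed the disagreement within a single gene. Its _a_at probe set was at -0.28 in WT cells at 5 µM against untreated, while its plain probe set had 11.04 and 11.01 at 5 µM, against 10.67 and 10.67 untreated, a change of 0.36 (adjusted p = 0.216). Ndufb5 gave -0.41 and 0.29, Ndufv1 -0.31 and 0.15, and Ndufv2 -0.68 and 0.23. These 4 genes had opposite signs in their probe sets. Ndufa5, Ndufb11 and Ndufc1 were negative in both kinds but differed in size, their plain probe sets being at -0.05, -0.04 and -0.10. Ndufs8, which holds iron-sulfur clusters of the quinone-reducing arm, had 5 probe sets, at 0.50 for its _a_at, 0.95 for its plain one, and 0.27, 0.01 and -0.03 for its 3 _x_at probe sets.

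Untreated CDKO against untreated WT cells gave the same ordering of the kinds, 12 of 12 genes against 70.5% of all such genes; these comparisons share the untreated WT arrays. In CDKO cells the ordering held in 11 of 12 genes at 5 µM (53.4% of all such genes) and 7 of 12 at 1 µM (51.3%). Read from the brightest plain probe set, 26 members could be measured. Their median in WT cells at 5 µM was 0.29, with 21 of 26 positive, against -0.08 and 45.2% positive for all 9023 genes so read. The difference between lines was then negative for 26 of 26 members with a median of -0.34, while 55.6% of genes were positive. Of the 26 members only Ndufs8 passed in its plain probe set, in WT cells at 5 µM. The share of the 9023 genes that passed is not given. With the brightest probe set of each gene 8.18% of all genes passed there.

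**Figure D4:**
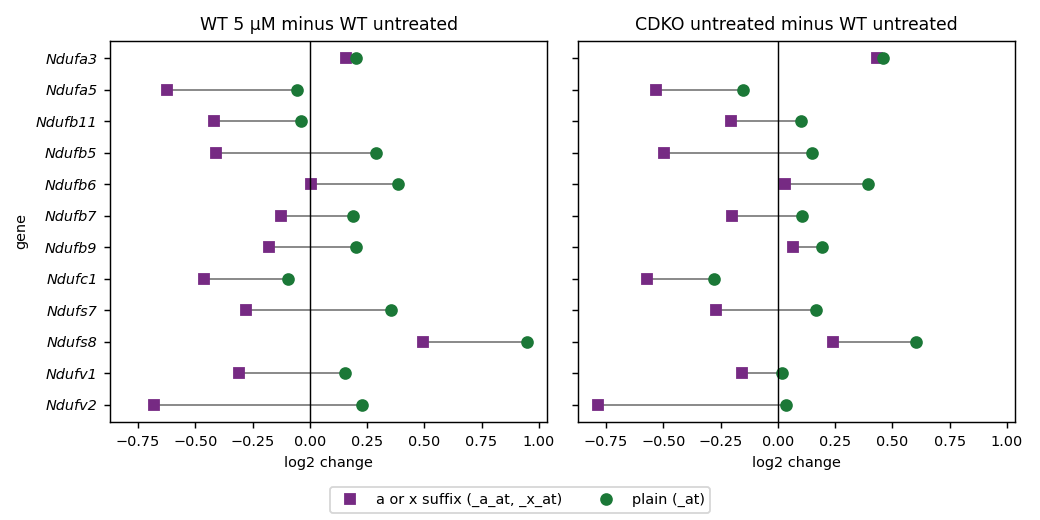
Log2 change of the _a_at or _x_at probe set (squares) and of the plain probe set (circles) of the 12 complex I genes that have both, for WT cells at 5 µM minus untreated (left) and untreated CDKO minus untreated WT cells (right). Every square lies left of its circle, and in 6 genes of each panel they lie on opposite sides of 0.

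Ndufa7, by contrast, had the same direction in every probe set. All 5 of its probe sets were higher in WT cells at 5 µM than untreated, by 0.54 to 1.11, of which 1 passed (8.18% of all genes did). Untreated CDKO cells were above untreated WT cells in all 5 as well, by 0.82 to 1.41, of which 2 passed (4.54% of all genes did). Within the CDKO line at 5 µM they ran between -0.08 and 0.16. None of the 5 is a plain probe set.

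A measure of this gap, taken per array, ordered the arrays across the study's groups. The gap is the median, over the 12 genes, of the centred _a_at or _x_at value minus the centred plain value. It was 0.28 and -0.30 in untreated CDKO cells, -0.37 and 0.11 at 1 µM, and -0.07 and -0.23 at 5 µM, against -0.10 and -0.12 in WT cells at 5 µM and 0.31 and 0.31 in untreated WT cells. Above 0 were thus both untreated WT arrays, replicate 1 of the untreated CDKO cells and replicate 2 at 1 µM. In the same 4 arrays the first principal component of the 34 genes, which held 51.9% of their variance, lay between -1.67 and -0.79, against -0.03 to 1.42 in the other 6. That component includes the 12 genes of the gap, so that its likeness to the gap is partly built in. Over all genes with both kinds of probe set the gap was 0.09 to 0.27 in the 4 arrays, against -0.25 to 0.06 in the other 6, so the split was not particular to complex I.

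Other measures moved with it. The median of 17 mitosis genes, centred on each gene's mean, was 0.54 to 1.69 in these 4 arrays, against -0.97 to -0.50 in the other 6. The Gapdh control's 3′ minus 5′ value was 0.07 to 1.58 in the 4, against -0.31 to -0.10 in the 6. The 18S ribosomal control was 11.6 and 11.2 in the untreated WT arrays and 10.2 in replicate 2 at 1 µM, against 5.21 to 8.44 in the other 7 arrays. The part of cell division, of RNA quality and of the labelled sample in these values was not tested.

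**Figure D5:**
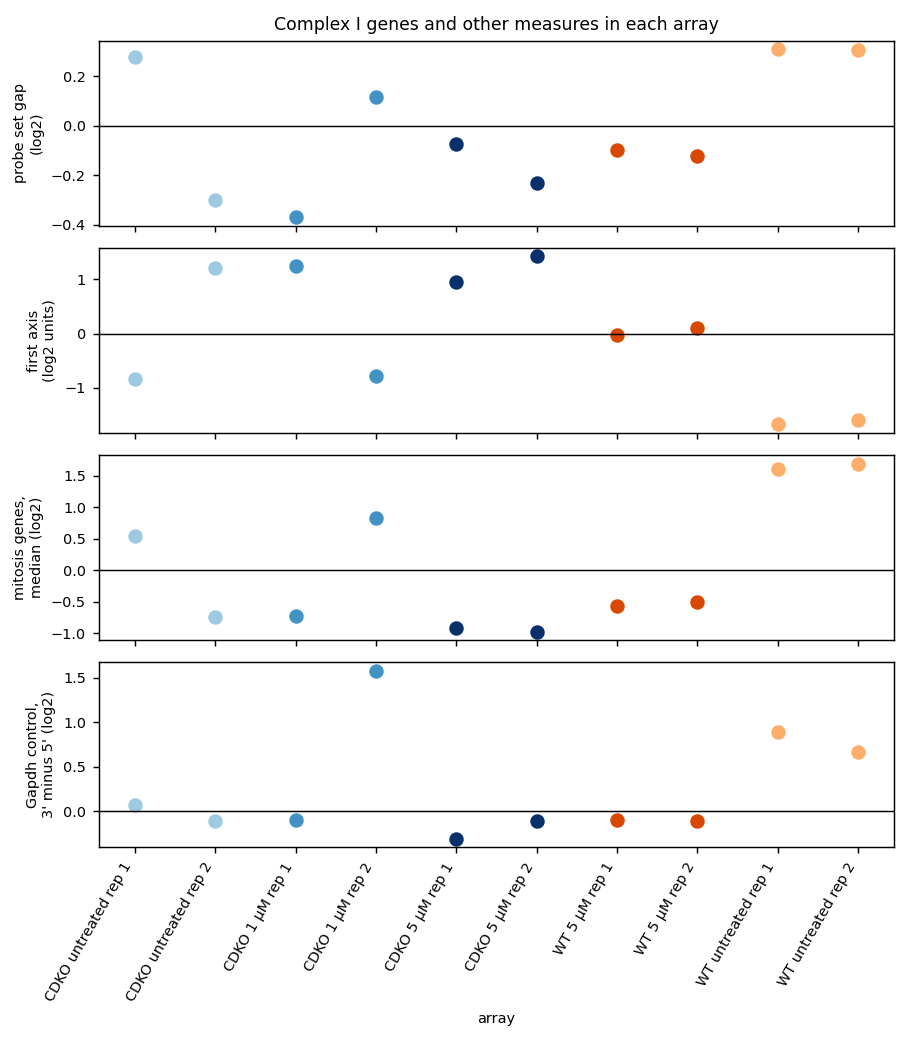
From top to bottom, for each array: the gap between the kinds of probe set over 12 complex I genes, the first principal component of the 34 genes, the centred median of 17 mitosis genes, and the 3′ minus 5′ value of the Gapdh control, all in log2 units. The 4 arrays with a gap above 0 are also the 4 with mitosis medians and Gapdh values above 0 and with the lowest values of the component, which includes the genes of the gap.

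The other lists of respiration held 63 different genes. In WT cells at 5 µM against untreated, 0 of 4 genes of complex II passed (median 0.43), 0 of 9 of complex III (0.33), 0 of 9 of complex IV (-0.03), 0 of 15 of ATP synthase (0.07), 0 of 12 of the citric acid cycle (0.13) and 0 of 15 complex I assembly factors (0.32). At an unadjusted p under 0.05 the counts were 1, 0, 1, 1, 4 and 3, or 15.9% of the 63 genes against 28.3% of all genes. In CDKO cells at 5 µM none of these 6 lists had a gene past either threshold, and their medians lay between -0.13 and 0.06 (0.141% and 7.4% of all genes were past them). The difference between lines had negative medians in all 6 lists, from -0.52 in complex II to -0.17 in complex IV, and 0 genes passed, with 1 gene each of complex IV and ATP synthase at an unadjusted p under 0.05.

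Untreated CDKO against untreated WT cells gave 2 calls among these lists, or 3.17% of the 63 genes against 4.54% of all genes. Foxred1, a complex I assembly factor, was at 7.72 in untreated CDKO cells, against 6.59 in untreated WT cells (1.12 ± 0.22, adjusted p = 0.0318). Cox8a, a subunit of complex IV, was at 11.9 in untreated CDKO cells, against 10.9 in untreated WT cells (0.95 ± 0.22, adjusted p = 0.0464). Among 11 regulators of mitochondrial biogenesis tested, only the coactivator Ppargc1b passed, lower in WT cells at 5 µM (3.47) than untreated (5.26; -1.79 ± 0.35, adjusted p = 0.0269), and lower in the CDKO line untreated (2.99, adjusted p = 0.0137 against untreated WT). The low values are near background, so these are not ratios of transcript amounts.

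Genes outside respiration passed in WT cells at 5 µM, where 8.18% of all genes did. Of 11 hypoxia targets 4 were higher, led by Ankrd37 (2.80 ± 0.59, adjusted p = 0.0331) and Bnip3, a mitophagy receptor (2.78 ± 0.35, adjusted p = 0.00747). Of 17 mitosis genes 10 were lower, led by Cenpf (-4.39 ± 0.99, adjusted p = 0.0378) and Mki67 (-3.61 ± 0.82, adjusted p = 0.039), and of 8 skeletal muscle markers tested 6 were lower and 1 higher. In CDKO cells at 5 µM 0 genes of these 3 lists passed (0.141% of all genes), and 6, 1 and 0 had an unadjusted p under 0.05 (7.4% of all genes). The medians of the 3 lists there were 1.02, -0.91 and -0.13, against 0.90, -2.24 and -2.75 in WT cells at 5 µM. The hypoxia targets thus had a median of similar size in both lines.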

How the data were processed

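The 10 arrays were Affymetrix arrays, and the deposited log2 values, 1 per probe set and array, came from GCRMA, according to the submitters' processing notes and per the labels. No version, chip definition or filter is given in the sources used here, and the log2 scale was read from the values (1.09 to 16). GCRMA models cross-hybridisation and normalizes between arrays, so a shift of all genes would not be seen. The description field calls all samples conditional knockout, while 4 titles name WT cells; the titles were followed.

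From 45101 probe sets, less 64 controls, the 20681 that reached a group mean of 4 were fitted with limma 3.58.1 under R 4.3.3. The model had 5 group means (lmFit, then eBayes) and 5 residual degrees of freedom, and served 7 comparisons. P-values were adjusted over all fitted probe sets by Benjamini-Hochberg, with a threshold of 0.05. Probe sets with several symbols were not named. The fit was run on simulated data with the same spread in all groups, so the unequal spread of the lines was not checked. The number of arrays limits the precision. Genes named with values are the highest and lowest of each comparison, the core subunits, the 3 widest and 3 narrowest ranges, Ndufa4 and Ndufa4l2, and up to 2 called genes of a list. Others were chosen after their values were seen. The members, the 15 lists (written from general knowledge) and the tests were chosen with earlier results of these data known. Of 13 alternatives 3 were added after seeing the data: a crossed replicate block, leaving out 3 arrays with raised 18S, and the kind of probe set.

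Replicate numbers were not treated as pairs: the difference between replicates in untreated CDKO cells had a correlation of -0.453 with that at 1 µM and of 0.431 with that at 5 µM, over the tested probe sets.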

Additional observations from a re-analysis of the deposited data

Results flagged for a closer look

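Probe sets of the members that the comparisons above do not use passed the limma threshold in 5 cases, although the probe set that stands for the gene did not. These cases came from 4 of 35 such probe sets, read in 7 comparisons. Of all genes 8.18% passed in WT cells at 5 µM against untreated, and 4.54% in untreated CDKO against untreated WT cells. The plain probe set of Ndufs8 had 10.91 and 10.93 in WT cells at 5 µM, against 9.95 and 10.00 in untreated WT cells (0.95, adjusted p = 0.0331). An _x_at probe set of Ndufa7 had 10.49 and 10.49 in WT cells at 5 µM, against 9.59 and 9.49 in untreated WT cells (0.95, adjusted p = 0.036). In untreated CDKO cells the same Ndufa7 probe set was 1.02 above untreated WT cells (adjusted p = 0.0338), and an _a_at probe set of Ndufa7 was 1.41 higher there (adjusted p = 0.0347). A plain probe set of Ndufab1 averaged 4.95 in untreated CDKO cells, against 3.25 in untreated WT cells (1.70, adjusted p = 0.0186), values near background that give no ratio of transcript amounts.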

How the results depend on the processing

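Over 7 comparisons and the alternatives run, 139 of 150 counts of called complex I genes stayed at 0. Many of these could hardly differ from 0. In the main fit 0% of all genes passed for CDKO at 1 µM and 0.141% for CDKO at 5 µM. For the difference between lines 0.301% did. Of 150 medians 137 moved by less than 0.106, the SD between arrays, and no call reversed. The replicate block and the crossed replicate block each gave 0 calls in every comparison. The share of all genes called with either block is not given, so these counts cannot be set against a background. A count above 0 arose without a filter on low values in 3 comparisons, namely 1 for treated CDKO cells against the controls (Ndufb8), 2 for CDKO against WT cells at 5 µM (Ndufb8 and Ndufs5) and 1 for untreated CDKO against untreated WT cells (Ndufa6). For untreated CDKO against untreated WT cells the count was 2 with array weights (5.88% of members, against 6.92% of all genes). It was 1 with a block for the spike-in level and 2 with the mean over a gene's probe sets. With each array left out it was 0 to 2, Ndufa6 and Ndufa7 passing without either 1 µM array. Shares of all genes are not given for the other counts of this comparison or for those without a filter. Those counts therefore cannot be set against a background here. In WT cells at 5 µM against untreated the count was 17 with array weights (50% of members, against 59.4% of all genes). It was 18 with only the groups compared (52.9%, against 54.9%). With plain probe sets it was 1, for which the share of all genes is not given.

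Medians with each array left out ran between -0.26 and 0.050 for CDKO at 1 µM, -0.25 and 0.011 for CDKO at 5 µM, -0.085 and 0.16 for untreated CDKO against untreated WT cells, and -0.38 and -0.14 for the difference between lines; their highest or lowest values came without 1 of the untreated CDKO arrays, except the lowest for CDKO at 5 µM, which came without replicate 1 at that dose. Centring the arrays gave -0.31 for CDKO against WT cells at 5 µM and -0.38 for the difference between lines. Plain probe sets gave 0.29 for WT cells, 0.22 for untreated CDKO against untreated WT cells and -0.34 for the difference. The spike-in block gave -0.014 for treated CDKO against the controls and 0.15 for untreated CDKO against untreated WT cells. The cause was not tested. A background correction could not be varied, as only summarised values were used.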
